A study of Rattus norvegicus with 6 samples.

Results

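Enterocytes, the absorptive epithelial cells of the colon, were compared between rats that received PL8177 after dextran sulfate sodium (DSS) and sham rats that received neither. The nuclei were those that the study assigned to enterocytes in these 2 treatments, and they were summed per library, as named by the tag that opens the name of a nucleus. There were 3359 nuclei in 3 PL8177 libraries and 2464 in 3 sham libraries, together 5823 of the 8782 enterocyte nuclei and of the 9800 nuclei in all. All rats were male wildtype Wistar rats, and the tissue was colon. PL8177 rats drank 5% DSS, which injures the colonic epithelium, for 3 days, and from day 4 to day 7 they were given capsules with 50 µg PL8177 2 times a day, 6 hours apart. Sham rats were given drinking water only. Placebo rats had the same DSS and capsules without the drug, and their 2959 enterocyte nuclei in 3 libraries are given beside the comparison. PL8177 and sham rats therefore differed in DSS, in the capsule and in the drug, and the 3 cannot be told apart in this comparison. The labels do not list the rats, so each tag was read as 1 rat, and p-values measure the spread between these libraries.

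Colonic enterocytes take up salt, water and short-chain fatty acids. Their apical membrane is folded into microvilli, the brush border, whose actin bundles are held by villin and linked to the membrane by ezrin and unconventional myosins, and their lateral membranes are sealed by tight and adherens junctions. DSS damages this layer, which then regrows from the crypts. PL8177 is an agonist of the melanocortin-1 receptor, a receptor that signals through cyclic AMP and is known for damping inflammation. The comparison addresses how the enterocytes of treated rats differ from those of rats whose colon had not been injured.

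The markers fitted the labelled cell type. All 15 enterocyte markers had UMIs (unique molecular identifiers, each standing for 1 captured RNA molecule) in both treatments. Their summed level was 245, 495 and 302 UMIs per 10000 UMIs in sham and 225, 259 and 298 in PL8177 libraries (exact two-sided permutation p = 0.4; with 3 against 3 libraries the smallest p possible is 0.1). Goblet cell markers summed to 2.42 to 4.86 over the 6 libraries, macrophage or dendritic cell markers to 2.67 to 4.05 and T cell markers to 0.169 to 0.525, all on the same scale. Neutrophil markers reached at most 0.0202, and 5 of the 7 in the data were at 0 in sham and 6 in PL8177 libraries. B cell markers (0.200 to 0.559 in sham, 0.0752 to 0.130 in PL8177), fibroblast markers (0.512 to 1.25 and 0.336 to 0.494) and tuft cell markers (0.363 to 0.624 and 0.179 to 0.299) were lower in every PL8177 than in every sham library (exact p = 0.1 each). Of 11 B cell markers in the data 1 was at 0 in sham and 5 in PL8177 libraries, and of 10 fibroblast and 10 tuft cell markers 0 were at 0 in sham and 1 of each in PL8177 libraries. Their part in the values below was not tested apart from that of other markers. For some lists, values without nuclei holding any marker of other cell types are given below. Library totals ran from 448970 to 4123319 UMIs. The median nucleus held 2331, 437 and 520 UMIs in sham libraries GR12, GR13 and GR15 and 1417, 1912 and 752 in PL8177 libraries GR41, GR43 and GR44. GR12 gave 77.1% of the sham UMIs and GR43 61.7% of the PL8177 UMIs, so every level below is given per library.

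No enterocyte gene passed the test between PL8177 and sham. Of 9424 genes tested, edgeR's quasi-likelihood test called 0 (0%), where a call needs an adjusted p below 0.05 and a log2 fold change beyond 0.5 in either direction, and the smallest adjusted p was 0.101, for Etfbkmt. Without adjustment, p was below 0.05 for 291 genes fitted higher in PL8177 (3.09%) and for 330 fitted lower (3.5%). DESeq2 called 4 genes, RT1-CE1 as higher and Etfbkmt, Armh1 and Tnfsf13 as lower. Over all genes 52.8% were fitted higher and 47.2% lower, with a median log2 fold change of 0.03. In 567 genes (6.02%) every PL8177 library was above every sham library, and in 566 (6.01%) every one was below. The same fit called 0 genes for placebo against sham (1172 at an unadjusted p below 0.05) and 0 for PL8177 against placebo (871). The genes described next were ranked by unadjusted p among those with no overlap between the 6 libraries, so their lack of overlap and their direction follow from the choice. None passed the test, and the wording "lower" or "higher" describes their levels. In placebo against sham, which shares the sham libraries, 15 of the 15 lower and 14 of the 15 higher genes were fitted on the same side. In 7 of the lower and 8 of the higher genes the placebo libraries did not overlap sham either.

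Among the genes lower in PL8177, the mitochondrial methyltransferase gene Etfbkmt, whose product modifies the electron transfer flavoprotein of fatty acid oxidation, had the smallest p. Its level was 0.820, 0.824 and 0.949 UMIs per 10000 in sham and 0.196, 0.211 and 0.247 in PL8177 libraries, so the sham mean was 3.97 times the PL8177 mean. The fitted log2 fold change was -1.99 ± 0.283 (SE, n = 3 against 3; edgeR adjusted p = 0.101; 95% interval -2.60 to -1.38). The 3 libraries of each treatment lay close together and the treatments were far apart. The placebo libraries, at 0.519, 1.00 and 0.667, were all above the PL8177 libraries and 1 was above every sham library, and the fitted value of placebo against sham was -0.46.

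Galnt18, of the enzyme family that starts mucin-type O-glycosylation, was lower as well, on 52221 UMIs over the 6 libraries. Its level was 61.5, 58.2 and 92.0 in sham and 28.8, 42.9 and 34.5 in PL8177 libraries, with a log2 fold change of -0.98 ± 0.272 (SE; edgeR adjusted p = 0.733). Placebo libraries were at 41.7, 50.8 and 62.9, which overlapped both treatments. Muc13, a transmembrane mucin of the apical surface and the leading enterocyte gene of the study, was at 57.7, 101 and 84.8 in sham and at 31.4, 49.3 and 42.5 in PL8177 libraries. Every PL8177 library was below every sham library, by -0.99 ± 0.287 on the log2 scale (SE; edgeR adjusted p = 0.733; 95% interval -1.61 to -0.37). The placebo libraries, at 24.0, 24.7 and 23.7, were below every PL8177 library. Since the study chose Muc13 on these samples, its values are no independent evidence of a direction.

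Antioxidant and metabolic genes were also among those lower. Prdx2, a peroxide-reducing peroxiredoxin, was at 0.377, 0.535 and 0.767 in sham and at 0.179, 0.228 and 0.169 in PL8177 libraries (log2 fold change -1.47 ± 0.327, SE). Blvrb, biliverdin reductase B, was at 0.245, 0.200 and 0.303 and at 0.112, 0.109 and 0.0779 (-1.26 ± 0.352). Nubpl, an assembly factor of mitochondrial complex I, was at 0.333, 0.356 and 0.343 and at 0.190, 0.170 and 0.0909 (-1.12 ± 0.324). The sham libraries of Nubpl differed little, while the PL8177 libraries varied around a mean of 0.150. Tnfsf13, which encodes the B cell cytokine APRIL, was at 1.01, 0.178 and 0.525 in sham and at 0.123, 0.114 and 0.0779 in PL8177 libraries (-2.45 ± 0.471; edgeR adjusted p = 0.469). Its sham level varied among libraries and was highest in GR12, without which the log2 fold change was -1.72. Sptssa, a subunit of serine palmitoyltransferase in sphingolipid synthesis, was at 0.478, 1.18 and 1.15 and at 0.308, 0.381 and 0.377 (-1.36 ± 0.371), and the sodium/proton exchanger gene Slc9a9 at 0.189, 0.913 and 0.565 and at 0.157, 0.107 and 0.156 (-1.95 ± 0.554). For both, the gap between the lowest sham and the highest PL8177 library was small. The other genes of this group with a symbol were Armh1 (-1.93), Ube3d (-1.53), Dcdc2 (-1.39), Mdga2 (-2.19), Cuta (-2.39) and the phosphatase gene Ilkap (-1.20). Ube3d was fitted at -0.24 in placebo against sham and Armh1 at -2.41. On that scale Prdx2 was at -1.26, Blvrb at -1.10, Nubpl at -0.76, Tnfsf13 at -2.49, Sptssa at -1.27 and Slc9a9 at -1.20.

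Among the genes higher in PL8177, Mxd1, a repressor that opposes Myc and marks differentiating epithelial cells, was at 10.4, 7.44 and 6.64 in sham and at 14.0, 15.7 and 15.1 in PL8177 libraries. Its log2 fold change was 0.89 ± 0.223 (SE; edgeR adjusted p = 0.733), and the placebo libraries, at 10.6, 9.84 and 10.0, were below every PL8177 library. Prkab1, a regulatory subunit of the energy sensor AMP kinase, was at 0.946, 0.557 and 0.929 in sham and at 2.11, 1.65 and 1.96 in PL8177 libraries (1.24 ± 0.308). The PL8177 mean of Prkab1 was 2.36 times the sham mean, and 1 of the placebo libraries, at 0.877, was at the sham level while the others were at 1.84 and 1.92. Cipc, a negative regulator of the circadian clock, was at 1.05, 0.824 and 0.767 and at 1.48, 1.66 and 1.92 (0.94 ± 0.260).

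Dusp1 and Areg, genes of the immediate response to growth factor and stress signals, were in the same group. Dusp1, a phosphatase that inactivates MAP kinases and is induced by glucocorticoids, was at 0.330, 0.156 and 0.121 in sham and at 0.643, 0.795 and 0.987 in PL8177 libraries. Its PL8177 mean was 4.00 times the sham mean (log2 fold change 1.85 ± 0.471, SE; edgeR adjusted p = 0.733). The placebo libraries of Dusp1 were spread over 1.32, 0.345 and 0.605. Areg, the epidermal growth factor receptor ligand amphiregulin, was at 0.663, 0.468 and 0.303 in sham and at 2.08, 1.04 and 0.766 in PL8177 libraries (1.39 ± 0.384). The placebo libraries of Areg, at 0.526, 0.345 and 0.594, lay within the sham range. Areg was highest in GR41, and over the alternatives tried its log2 fold change ran from 0.54 to 1.71.

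RT1-CE1, a class I histocompatibility gene, was at 0.757, 0.290 and 0.484 in sham and at 1.29, 2.12 and 2.44 in PL8177 libraries (1.89 ± 0.409; edgeR adjusted p = 0.702). The rat class I genes are near-identical copies, so reads may be split between them and this value is uncertain. CYTB, which the mitochondrial genome encodes, was at 1.88, 6.26 and 3.41 in sham and at 36.0, 50.5 and 71.8 in PL8177 libraries (3.78 ± 0.868). Its placebo libraries were at 89.5, 4.20 and 87.9, so 1 of the 3 was at the sham level. Mitochondrial RNA comes from outside the nucleus, and the study kept nuclei under 5% of it. Zbed5 had 63 UMIs in the 6 libraries and was at 0.00628, 0 and 0 in sham and at 0.0615, 0.0922 and 0.156 in PL8177 libraries, so it was close to undetected in sham. The others were Ngef (1.16), Nrde2 (1.01), Xylt1 (1.35), which starts glycosaminoglycan chains, and Cpped1 (1.16).

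**Figure D1:**
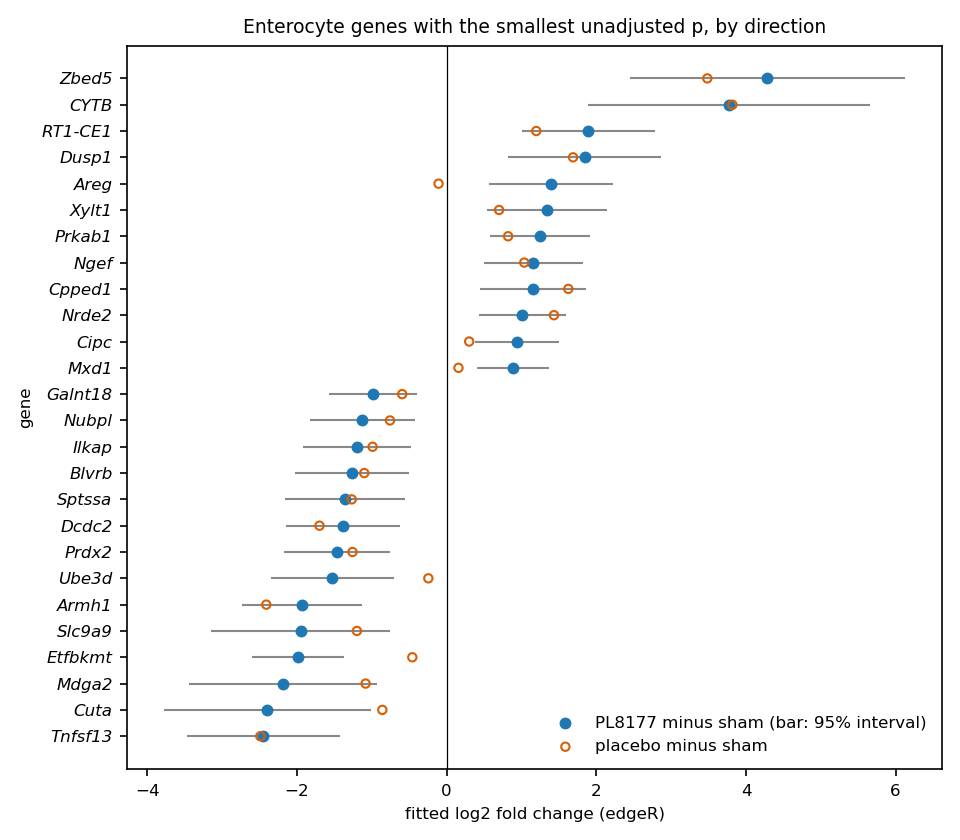
Fitted log2 fold changes from edgeR of PL8177 against sham (filled points, with 95% intervals) and of placebo against sham (open points) for the 26 genes with a symbol that were ranked by unadjusted p. Both comparisons share the sham libraries, and Areg, with 1.39 in PL8177 and -0.11 in placebo, is the only gene on opposite sides of 0.

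**Figure D2:**
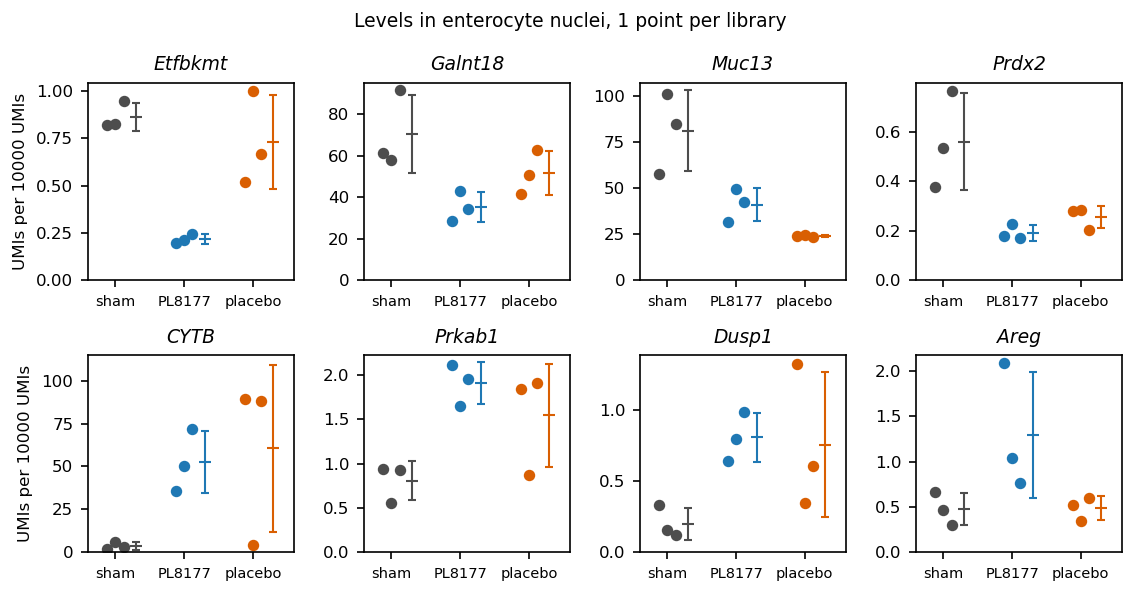
Levels in UMIs per 10000 UMIs of 8 genes, with 1 point per library and bars for the mean and SD of 3 libraries per treatment. Sham and PL8177 libraries do not overlap in any of the 8. This follows from the way the genes were chosen, except for Muc13, which was named as the study's leading gene. CYTB has 1 placebo library at 4.20 and the others at 89.5 and 87.9.

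Because Dusp1 and Areg are known targets of cyclic AMP signaling, the promoters of the genes named here were searched for the cyclic AMP response element in its full form, TGACGTCA, which reads the same on both strands. RefSeq promoters (build GRCr8, 250 bases before to 50 after the gene start) were matched for 21 of 31 genes. The motif occurred in 612 of 33469 promoters (1.83%), and among the named genes in Dusp1 and Areg, of 9 higher in PL8177, and in Nubpl, of 12 lower. Each motif began 124, 91 and 55 bases before the start of Dusp1, Areg and Nubpl. The 150 bases before each start are printed from 5′ to 3′ on the strand of the gene, with the motif in capitals, to show where it lies. They are at chr10:17184703-17184852 (+) for Dusp1, chr14:17265642-17265791 (-) for Areg and chr6:75294502-75294651 (+) for Nubpl.
Dusp1: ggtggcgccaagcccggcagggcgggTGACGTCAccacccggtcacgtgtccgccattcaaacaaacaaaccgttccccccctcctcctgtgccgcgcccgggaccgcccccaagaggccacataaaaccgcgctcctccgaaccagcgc
Areg: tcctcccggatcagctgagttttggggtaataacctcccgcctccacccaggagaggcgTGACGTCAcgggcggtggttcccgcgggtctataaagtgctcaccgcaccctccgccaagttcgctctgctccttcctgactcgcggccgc
Nubpl: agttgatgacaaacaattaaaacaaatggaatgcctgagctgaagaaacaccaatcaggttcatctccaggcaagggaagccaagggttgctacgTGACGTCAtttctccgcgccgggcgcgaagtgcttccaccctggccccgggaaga
A match is a description of the letters in this window. The motif was looked for with the values of these genes known, and binding was not measured. Dusp1 and Areg prompted the search as known targets, so their matches are no test against the 1.83%. The match that did not prompt it was in Nubpl, which was lower in PL8177.

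Receptors and effectors of the drug's own pathway were looked at as a list of 51 melanocortin receptor and cyclic AMP genes. Mc1r and the other melanocortin receptors were not analysed here. Of 29 members tested, 0 were called, 14 were fitted higher and 15 lower, with a median log2 fold change of 0.00 (0.03 over all genes) that ran from -0.079 without GR41 to 0.14 without GR12. Pde3b, a phosphodiesterase that degrades cyclic AMP, was at 0.185, 0.134 and 0.121 in sham and at 0.0783, 0.114 and 0.0779 in PL8177 libraries (-0.71 ± 0.371, SE). Rapgef4, a cyclic AMP-activated exchange factor, had 14 UMIs in the 6 libraries, 1 of them in PL8177 libraries. These 2 were the members in which every PL8177 library was below every sham library (6.90%, against 6.01% of all genes), and they were named after their values were seen. So was the cyclase gene Adcy5, which overlapped between treatments and was fitted at -2.91, from -3.77 to -2.09 over the alternatives.

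Brush border genes were the list in which the largest share of members did not overlap. Of 22 members tested, 0 were called, but 20 were fitted higher in PL8177 (52.8% of all genes were) and 2 lower, and the median log2 fold change was 0.36. In 8 members (36.4%, against 6.02% of all genes) every PL8177 library was above every sham library. The summed level was 143, 145 and 119 UMIs per 10000 in sham and 175, 169 and 161 in PL8177 libraries, so the sums did not overlap either, and it was 141, 129 and 135 in placebo libraries. Villin (Vil1), which bundles actin in the microvillus, was at 3.84, 4.61 and 2.79 in sham and at 9.04, 5.92 and 5.26 in PL8177 libraries (log2 fold change 0.84 ± 0.296, SE; edgeR adjusted p = 0.733; 95% interval 0.20 to 1.48). Its highest library was GR41, and the lowest PL8177 library was above the highest sham library. The motor gene Myo1a, which ties the actin core to the membrane, was at 1.27, 1.36 and 1.25 and at 1.91, 2.24 and 2.69 (0.83 ± 0.262), with sham libraries almost alike.

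Further members without overlap serve the same structure. Ush1c, a scaffold of the links between microvilli, was at 1.91, 1.78 and 1.72 in sham and at 2.89, 2.49 and 2.31 in PL8177 libraries (0.51 ± 0.198). Eps8l2, an actin capping and bundling relative of Eps8, was at 8.79, 10.2 and 10.3 and at 15.5, 12.2 and 16.2 (0.60 ± 0.237). Cobl, an actin nucleator, was at 7.96, 5.28 and 6.38 and at 9.99, 12.3 and 8.25 (0.65 ± 0.221). For Cobl the placebo libraries, at 9.66, 12.3 and 11.1, were in the PL8177 range, whereas for Eps8l2 they were at 9.55, 7.02 and 8.52, within or below the sham range. Smaller differences were fitted for ezrin (Ezr, 0.37 ± 0.226), Myo7b (0.27 ± 0.200) and Myo5b (0.42 ± 0.207), the last at 12.5, 8.78 and 11.6 in sham and 16.1, 14.8 and 12.5 in PL8177 libraries. The other most counted members, Actn4 (0.26), Eps8 (-0.06) and Myo1d (0.21), overlapped between treatments. Apart from Myo5b, the members without overlap were named after their values were seen. When every nucleus was thinned to 300 UMIs the median fell to 0.17, with 17 of 21 members fitted higher. Without nuclei holding any UMI of markers of other cell types it was 0.18. That filter left out 89.0%, 47.0% and 53.7% of the nuclei in GR12, GR13 and GR15. In GR41, GR43 and GR44 it left out 67.2%, 75.6% and 55.3%. Without GR12, the deepest sham library, it was 0.49 with 19 of 22 higher, and with other libraries left out it ran from 0.27 without GR15 to 0.50 without GR13.

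**Figure D3:**
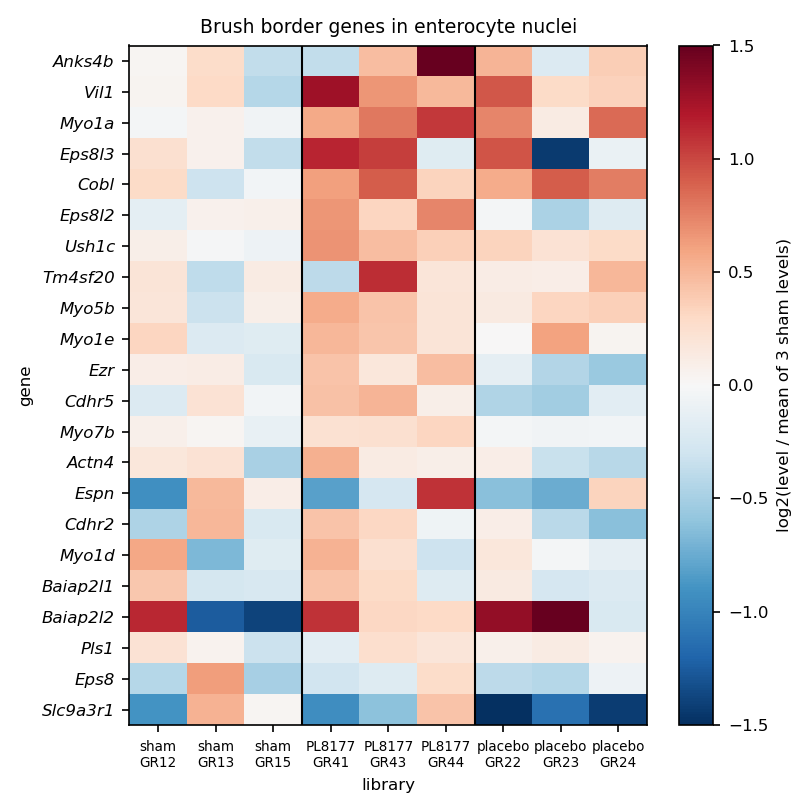
Level of each brush border gene tested, in each library, as the log2 ratio to the mean of the 3 sham levels, with genes ordered by their fitted difference. Vil1, Myo1a, Cobl, Eps8l2, Ush1c, Myo5b, Ezr and Myo7b are above the sham mean in every PL8177 library, while Eps8 and Myo1d have PL8177 libraries on both sides of it.

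Junction genes differed less. Of 34 members tested, 0 were called, 22 were fitted higher and 12 lower, and the median log2 fold change was 0.12. In 4 members (11.8%, against 6.02% of all genes) every PL8177 library was above every sham library. The intestinal cadherin gene Cdh17 was at 13.3, 11.1 and 11.5 in sham and at 18.6, 17.9 and 19.4 in PL8177 libraries (0.65 ± 0.219, SE; edgeR adjusted p = 0.733), and both treatments were tight. The adhesion molecule gene Epcam was at 6.84, 5.30 and 4.30 and at 8.53, 9.86 and 9.61 (0.78 ± 0.326), and E-cadherin (Cdh1) at 20.6, 19.0 and 17.6 and at 25.5, 23.0 and 21.3 (0.29 ± 0.217). The claudin gene Cldn4 was at 1.02, 1.05 and 1.11 in sham and at 1.72, 3.22 and 1.27 in PL8177 libraries, so the sham libraries were alike and the PL8177 libraries were spread. Cgnl1, which encodes a tight junction plaque protein, was the 1 member lower without overlap (-0.96 ± 0.417). Epcam, Cldn4 and Cgnl1 were named after their values were seen. The other most counted members, Magi3 (0.06) and Ctnnd1 (0.19), overlapped between treatments. With nuclei thinned to 300 UMIs the median of the list was 0.03, and with a library left out it ran from 0.045 without GR15 to 0.20 without GR12.

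The genes of absorptive function had a median near that of all genes. Of 25 members tested, 0 were called, 14 were fitted higher and 11 lower, with a median of 0.09, which was -0.19 in thinned nuclei, -0.049 without GR43 and 0.20 without GR13. The chloride/bicarbonate exchanger gene Slc26a3 was at 86.1, 145 and 74.3 in sham and at 80.1, 85.3 and 121 in PL8177 libraries (log2 fold change -0.10 ± 0.339; 95% interval -0.84 to 0.64), with full overlap. Lypd8, a secreted protein that keeps flagellated bacteria from the epithelium, was at 80.4, 89.4 and 103 and at 37.5, 82.3 and 87.8 (-0.38 ± 0.380). Clca4, a regulator of chloride conductance, was at 17.1, 13.5 and 12.7 and at 38.9, 20.9 and 10.1 (0.68 ± 0.366). For Lypd8 and for Clca4, 1 PL8177 library, GR41, stood apart from the others. Clca4 is among the genes the study chose on these samples, so its values are no independent evidence of a direction. The sodium/proton exchanger gene Slc9a3 was the 1 member above sham in every PL8177 library (4% of the list, against 6.02% of all genes; Muc13 was the 1 member below), at 11.4, 10.2 and 11.8 and at 14.8, 15.6 and 13.4 (0.41 ± 0.297), and was named after its values were seen.

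Genes of fatty acid oxidation, ketogenesis and butyrate use had a median of 0.07, with 18 of 31 members fitted higher, 13 lower and 0 called. The sign of the median depended on the libraries and nuclei kept: it was -0.096 without GR43 and -0.049 without GR13, with 14 of 31 higher in each case. It was also -0.037 in nuclei with at least 500 genes, with 15 of 31 higher, and -0.0088 in thinned nuclei, with 13 of 27 higher. In 2 members (6.45%, against 6.01% of all genes) every PL8177 library was below every sham library. One of them, Hadha, a subunit of the mitochondrial trifunctional protein, was at 3.65, 4.28 and 4.20 in sham and at 2.80, 3.40 and 3.44 in PL8177 libraries (-0.32 ± 0.265, SE), and was named after its values were seen. The butyrate and lactate carrier gene Slc16a1 was at 9.03, 6.84 and 8.44 and at 5.84, 7.61 and 4.77 (-0.40 ± 0.238), with an overlap of 1 library.

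Sterol synthesis genes had the highest median of the lists, 0.66, with 18 of 22 members fitted higher, 4 lower and 0 called, and this rested on 1 library. The summed level was 15.9, 12.6 and 12.5 UMIs per 10000 in sham and 32.4, 15.9 and 14.5 in GR41, GR43 and GR44. Without GR41 the median was 0.16, and without GR43 it was 0.91. Hmgcs1, which makes the precursor of mevalonate, was at 1.18, 0.735 and 0.444 in sham and at 3.93, 1.06 and 1.68 in PL8177 libraries (1.46 ± 0.461). The regulator gene Srebf2 was at 2.81, 2.12 and 1.76 and at 4.96, 2.98 and 2.57 (0.65 ± 0.265), and Fdft1 was fitted at 0.92 ± 0.442. In each of them GR41 stood above the other PL8177 libraries. Fdps and Sqle were the 2 members without overlap (9.09%, against 6.02% of all genes). Hmgcs1, Fdps and Sqle were named after their values were seen.

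Interferon response genes varied among the libraries of each treatment. Of 39 members tested, 0 were called, 8 were fitted higher and 31 lower (47.2% of all genes were), with a median of -0.41, and 0 members were without overlap (6.02% of all genes were above and 6.01% below). The summed level was 33.5, 111 and 41.3 UMIs per 10000 in sham libraries GR12, GR13 and GR15 and 22.2, 31.4 and 90.5 in PL8177 libraries GR41, GR43 and GR44. In placebo libraries it was 25.2, 89.6 and 38.4, so each treatment had 1 high library. Without GR13 the median turned to 0.66, and it was -1.21 without GR44, -0.97 without GR12 and -0.13 without GR43. Rnf213, an interferon-induced ubiquitin ligase, was at 1.88, 24.0 and 3.73 in sham and at 1.60, 2.21 and 13.2 in PL8177 libraries (-0.83 ± 1.05). The transcription factor gene Irf1 (-0.38 ± 0.631) and the ubiquitin ligase gene Trim25 (-0.31 ± 0.376) had the same high libraries. B2m, the light chain of class I molecules, was at 15.4, 16.1 and 13.5 in sham and at 5.04, 14.5 and 28.0 in PL8177 libraries (0.11 ± 0.459), so its sham libraries were alike while its PL8177 libraries ran from below to above them. Of 10 MHC class II genes in the data, 3 were tested, and Ctss (-0.59), RT1-DOa (-1.73) and Cd74 (-1.42; 0.35 without GR12) overlapped between treatments. With a library left out the median of the tested class II genes ran from -2.19 to -0.66.

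**Figure D4:**
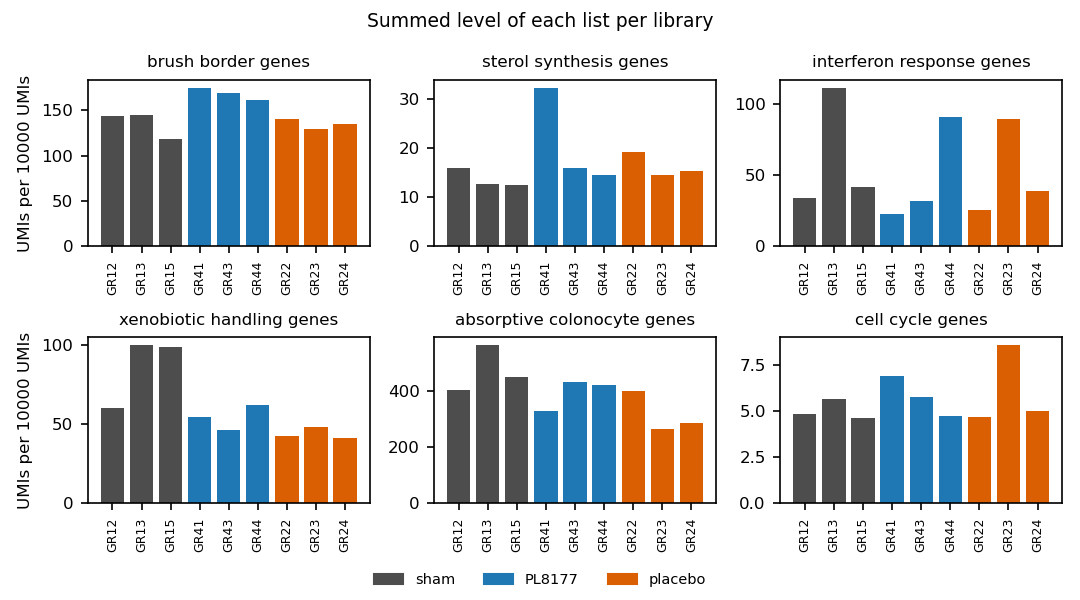
Summed level of 6 gene lists in each of the 9 libraries, in UMIs per 10000 UMIs. The brush border sums of the PL8177 libraries (161 to 175) are above those of sham (119 to 145), the sterol sum is high in GR41 (32.4) alone among PL8177 libraries, and each treatment has 1 library with a high interferon sum (111, 90.5 and 89.6).

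NF-kB and epithelial defence genes were fitted higher in 15 of 27 tested and lower in 12, with a median of 0.21 (-0.22 in thinned nuclei) and 0 called. The median was 0.010 without GR41, 0.043 without GR15 and 0.056 without GR12. Nfkbia, which holds NF-kB in the cytoplasm and is itself an NF-kB target, was at 0.848, 0.958 and 0.727 in sham and at 1.38, 1.37 and 1.70 in PL8177 libraries (0.82 ± 0.246, SE; edgeR adjusted p = 0.733; 95% interval 0.29 to 1.35). Tnip1, an adaptor of the inhibitor A20, was at 2.26, 1.69 and 1.94 and at 2.31, 3.51 and 3.33 (0.65 ± 0.277), with GR41 next to the highest sham library. Ccl20, a chemokine of the inflamed epithelium, had 143 UMIs in the 6 libraries, at 0.0408, 0 and 0.0404 in sham and 0.0447, 0.235 and 0.299 in PL8177 libraries (2.50 ± 0.840), and was at 0.114, 0.470 and 0.407 in placebo libraries. Members lower in every PL8177 library were Relb (-0.49 ± 0.262), a subunit of NF-kB, and Traf1 (-0.80 ± 0.535). That was 3 members above (11.1%) and 2 below (7.41%), against 6.02% and 6.01% of all genes. Apart from Tnip1 they were named after their values were seen. The polymeric immunoglobulin receptor gene Pigr, the most counted member, was at 11.7, 23.8 and 39.0 and at 8.80, 13.4 and 32.0 (-0.42 ± 0.490), with wide overlap.

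Injury and regeneration genes were fitted higher in 20 of 27 tested and lower in 7, with 0 called and a median of 0.29, which was 0.04 without GR41. In 5 members (18.5%, against 6.02% of all genes) every PL8177 library was above every sham library, with Areg described above. The integrin gene Itga3 was at 1.24, 0.713 and 1.15 in sham and at 2.19, 1.57 and 1.45 in PL8177 libraries (0.75 ± 0.264). S100a6, a calcium-binding protein of regenerating epithelium, was at 4.72, 2.14 and 2.02 and at 5.11, 6.88 and 5.22 (0.96 ± 0.502), and its placebo libraries ran from 1.47 to 8.90. The others were Il4r (0.56 ± 0.261) and Amotl2 (0.51 ± 0.455). Members fitted lower included Krt18 (-0.94), Plaur (-0.86), Anxa3 (-0.63, but up to 0.62 over the alternatives) and Tgfa (-0.51). In 0 members every PL8177 library was below every sham library (6.01% of all genes were). Itga3, Il4r, Amotl2 and the members given as lower were named after their values were seen.

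Cell cycle genes were fitted higher in 26 of 34 tested, with 0 called and a median of 0.24. Without GR12 the median was 0.075, with 17 of 31 higher, without GR41 it was 0.083, with 19 of 31 higher, without placebo GR24, which shares the fit, it was 0.10, and without GR13 it was 0.42. Cenpf (0.51), Bub1 (1.14), Kif4a (0.42) and Smc2 (1.27), which act in chromosome segregation, were higher in every PL8177 library (11.8% of the list, against 6.02% of all genes), on 47 to 187 UMIs each, and were named after their values were seen. Nuclei with a UMI of a cycling marker made up 4.88% ± 4.07 (SD) of the 3 sham libraries and 8.39% ± 2.98 (SD) of the 3 PL8177 libraries (exact permutation p = 0.3), and the share was 9.58% in GR12, the deepest sham library, and 2.66% and 2.40% in the other sham libraries. Without those nuclei the median was -0.07. Wnt and crypt base genes had a median of -0.20 (-0.040 without GR44), with 5 of 11 tested fitted higher and 0 called.

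Genes of the response to steroid hormones were fitted higher in 9 of 13 tested, with 0 called and a median of 0.34. It was 0.11 without GR13, 0.12 without GR43 and -0.026 in thinned nuclei, where 4 of 8 were fitted higher. For placebo against sham, which shares the sham libraries, the median was 0.50 with 3 of 13 fitted lower, so the shift was not particular to PL8177. Besides Dusp1, Ddit4, an inhibitor of mTORC1, was higher in every PL8177 library, at 0.220, 0.156 and 0.242 in sham and 0.330, 0.444 and 0.299 in PL8177 libraries (0.81 ± 0.295). Sgk1, a kinase that aldosterone induces and that keeps sodium channels at the membrane, went the other way, at 2.58, 2.47 and 3.69 in sham and 0.699, 2.47 and 1.38 in PL8177 libraries (-0.92 ± 0.372), where the nearest libraries, GR13 and GR43, were equal to 3 digits. The placebo libraries of Sgk1, at 4.55, 3.10 and 3.85, were above every PL8177 library. With 2 members above (15.4%) and Sgk1 below (7.69%), the shares over all genes were 6.02% and 6.01%. Ddit4 was named after its values were seen.

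Unfolded protein response genes had a median of 0.34, with 18 of 26 tested fitted higher and 0 called. Herpud1, a factor of endoplasmic reticulum degradation, was at 1.16, 1.74 and 1.21 in sham and at 1.85, 1.85 and 3.27 in PL8177 libraries (0.78 ± 0.307), and Ddit3 (0.95) and Dnajc3 (0.41) were also higher in every PL8177 library. Manf, a secreted protein of the endoplasmic reticulum, was lower, at 0.487, 1.11 and 0.646 and at 0.330, 0.390 and 0.260 (-1.14 ± 0.363), as was the transcription factor gene Atf4 (-0.74 ± 0.333). That was 11.5% of the list above and 7.69% below, against 6.02% and 6.01% of all genes. Apart from Herpud1 they were named after their values were seen, and over the alternatives the median ran from -0.06, without nuclei holding markers of other cell types, to 0.43, and it was 0.17 without GR13. The marker filter left out 47.0% to 89.0% of the nuclei of a library.

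Xenobiotic handling genes were fitted higher in 12 of 26 tested and lower in 14, with a median of -0.02 (0.14 without GR12, -0.13 without GR15) and 0 called, while their summed level, 60.2, 100 and 98.8 in sham and 54.7, 46.1 and 62.3 in PL8177 libraries, followed the most counted member. That was Gpx2, the glutathione peroxidase of the gut epithelium, at 19.9, 61.8 and 62.4 in sham and 17.0, 7.21 and 29.5 in PL8177 libraries (-1.41 ± 0.565; 95% interval -2.63 to -0.18). The treatments overlapped because GR12 was low, and the placebo libraries were at 5.56, 16.6 and 8.71. Since Gpx2 is among the genes the study chose on these samples, its values are no independent evidence of a direction. Ugt1a1, which conjugates bilirubin, was at 10.1, 8.53 and 7.81 and at 7.07, 9.03 and 6.35 (-0.23 ± 0.235). The efflux pump gene Abcc4, which also carries cyclic AMP out of the cell, was the 1 member above sham in every PL8177 library (1.41; 3.85% of the list, against 6.02% of all genes), and was named after its values were seen. Anion secretion and ion pump genes were fitted higher in 13 of 19, with 0 called and a median of 0.18 (0.27 without GR41), and 2 members (10.5%, against 6.02% of all genes) were above sham in every PL8177 library. The chloride channel gene Ano1 was at 6.22, 5.92 and 6.74 in sham and at 7.59, 8.46 and 7.77 in PL8177 libraries (0.35 ± 0.243), and the sodium pump subunit gene Atp1b3 was fitted at 0.59 ± 0.353; both were named after their values were seen.

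**Figure D5:**
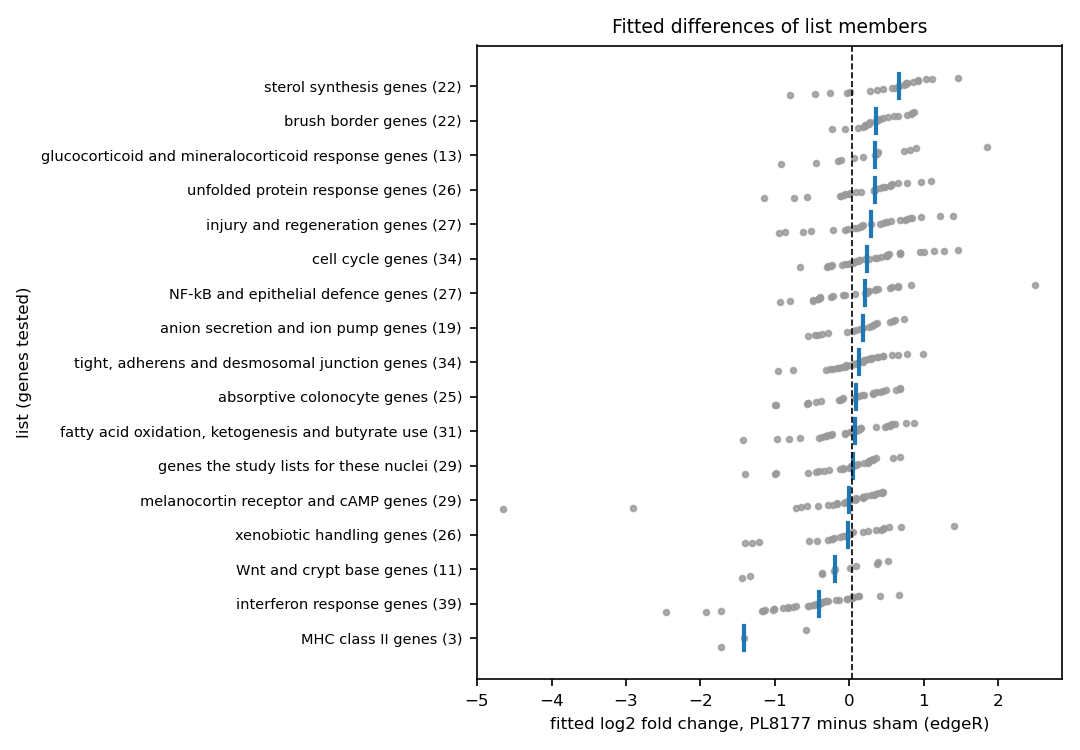
Fitted log2 fold change of PL8177 against sham (edgeR) for each tested member of 17 gene lists (grey points), with the median of each list (bar) and of all 9424 genes tested (dashed line, 0.03). List medians run from -1.42, for 3 MHC class II genes, to 0.66 for sterol synthesis genes, and no member of any list passed the test.

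The study lists genes that it found significantly higher in enterocytes of both sham and PL8177 rats than of placebo rats. Of these, 29 were used, since the remaining names could not be matched as read. In PL8177 against sham 17 were fitted higher, 12 lower and 0 called, with a median of 0.05. This median depended on the libraries and nuclei kept. It was 0.26 with 23 of 29 higher without GR13, and -0.071 without GR12. In nuclei thinned to 300 UMIs it was -0.19 with 11 of 29 higher. Without nuclei holding markers of other cell types it was -0.086 with 13 of 29 higher. For placebo against sham, which shares the sham libraries, their median was -0.95, a direction that follows from the way the list was chosen. The study chose this list on these samples, so it is no independent evidence of a direction. Summed over the list, the level was 303, 654 and 590 UMIs per 10000 in sham, 329, 336 and 575 in PL8177 and 206, 277 and 241 in placebo libraries. The lowest sham and the lowest PL8177 library were close, and 1 PL8177 library, GR44, lay near the higher sham libraries.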

How the data were processed

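Single nuclei RNA was measured in flash-frozen rat colon with the 10x Genomics 3′ assay. The authors counted UMIs with Cell Ranger 6.0.1 on the rat genome Rnor 6.0, introns included, removed background with CellBender, dropped nuclei below 200 genes or with 5% or more of mitochondrial reads, and named cell types by markers of Seurat 4.0.3 clusters. The deposited values are whole UMI counts per gene and nucleus, not normalized for depth. Doublet removal by the authors is not given in the sources used here. Scrublet called 65 of 8782 enterocyte nuclei (0.740%), which were kept. Libraries shared 8 barcodes, at most 1 per pair.

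UMIs were summed per library tag and tested with edgeR 4.0.16 (R 4.3.3; TMM, filterByExpr, glmQLFit, glmQLFTest, Benjamini-Hochberg adjustment), with the 9 libraries of the 3 treatments in 1 fit. Levels are UMIs per 10000 UMIs of a library, and were not compared between genes because 3′ counts with introns are not per length. Intervals are 95% intervals of the fit, SE is its standard error, and single values were compared with exact two-sided permutation tests. Alternatives were DESeq2 1.42.0, voom with quality weights (limma 3.58.1), RLE and upper quartile scaling, other filters on genes and nuclei, thinning to 300 UMIs (562 nuclei left out), nuclei without markers of other types or of cycling cells, the 6 libraries alone, and each library left out. A nucleus with any UMI of another cell type's marker counted as holding it, which was 47.0% to 89.0% of the nuclei of a library. The edgeR, DESeq2 and voom steps were tested on simulated data. Python 3.11.15 with scanpy 1.11.5 was used for the rest.

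The genes named are up to 15 per direction with at least 50 UMIs, an absolute log2 fold change above 0.5 and no overlap, by unadjusted p; per list, the 4 members with most UMIs (a selection is printed); and Muc13 (Mc1r, also in the rule, was not analysed here). The comparison, the members and the 17 lists were chosen with earlier results of these data known. Adjusted p-values are over all 9424 genes tested. Some results were left out because they are withheld and are not reported here.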

Additional observations from a re-analysis of the deposited data

How the results depend on the processing

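The count of 0 genes called for PL8177 against sham became 4 with DESeq2, 1 with voom, 10 of 16533 genes with no filter on low counts, and 1 without nuclei holding markers of other cell types, and it ran from 0 to 2 when each library was left out (2 without placebo GR23). The cause was not tested. The count at an unadjusted p below 0.05 was 621, and it was 1229 without GR12, 911 without GR44, 321 without GR15 and 1365 with voom. Of 97 named genes followed over the settings, 11 changed sign under some setting, and none of the 11 was called under any. Anxa3 (-0.63), which was not among the 97, also changed sign, with a highest value of 0.62. Eps8 (-0.06) was 0.040 with voom, 0.026 with no filter and 0.12 in nuclei with at least 500 genes, where Slc26a3 (-0.10) was 0.035. Magi3 (0.06) was -0.13 in thinned nuclei and -0.026 without nuclei holding other markers, where Actn4 was -0.030, Dnajc3 -0.21 and Relb 0.079. B2m was -0.12 with voom and -0.024 in thinned nuclei. With each library left out in turn, the log2 fold change ran from -0.30 to 0.51 for Eps8, from -0.11 to 0.35 for Magi3, from -0.33 to 0.34 for Slc26a3, from -0.63 to 0.54 for B2m, from -2.45 to 1.15 for Rnf213, from -0.99 to 0.26 for Irf1, from -0.68 to 0.14 for Trim25 and from -2.19 to 0.35 for Cd74. No paired analysis was possible because the labels give no replicate numbers that link libraries of different treatments. Genes with few UMIs over the 6 libraries, such as Zbed5 (63) and Rapgef4 (14), rest on few molecules. List medians were recomputed under the same settings after their values had been seen.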

Other observations

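Some genes outside the groups described were called under 1 setting only, and all were named after their values were seen. With no filter on low counts, 8 genes were called lower and 2 higher in PL8177 (the latter CYTB and RT1-CE1). B4galnt3, a glycosyltransferase gene, was at 10.5, 0.356 and 16.5 UMIs per 10000 in sham libraries GR12, GR13 and GR15, at 1.02, 0.264 and 0.598 in PL8177 and at 0.207, 0.0940 and 3.13 in placebo libraries. Its sham libraries were split, with GR13 within the PL8177 range. Cntnap5c was at 0.415, 3.03 and 3.45 in sham and at 0.101, 0.182 and 0.689 in PL8177 libraries, and Atp1a4, a sodium pump subunit gene, at 0.0974, 0.713 and 1.64 and at 0.0224, 0.0825 and 0.169. For both, GR12 was the lowest sham library and overlapped PL8177. Polr2e, a subunit gene of RNA polymerase II, was called lower without nuclei holding markers of other cell types (-3.21). With all nuclei it was at 0.333, 1.05 and 0.989 in sham and 0.106, 0.129 and 0.390 in PL8177 libraries, which overlapped. That filter left out 47.0% to 89.0% of the nuclei of a library.

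Pparg, a nuclear receptor of the colonic epithelium, was at 8.32, 8.04 and 5.51 in sham, 11.4, 12.3 and 7.56 in PL8177 and 14.1, 6.71 and 6.56 in placebo libraries. Its log2 fold change was 0.51 ± 0.327 (SE; edgeR adjusted p = 0.795), and the treatments overlapped. The antiapoptotic gene Birc3 was at 4.53, 4.48 and 5.09 in sham and at 4.78, 5.20 and 6.34 in PL8177 libraries (0.23 ± 0.253), with overlap of PL8177 library GR41 and the sham range.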
